A study of Mus musculus with 6 samples.

Results

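The cytosolic ribosomal protein genes were followed in cultured mouse muscle satellite cells (MuSCs), the stem cells of skeletal muscle, with and without the mechanosensitive channel gene *Piezo1*. Members were taken by symbol, as *Rpl* or *Rps* followed by a number with an optional suffix, plus *Rplp0*, *Rplp1*, *Rplp2*, *Rpsa* and *Fau*. Pseudogene copies marked -ps, the *Rps6k* kinases and rows with fewer than 10 counts summed over the libraries were dropped. This left 85 genes of the 20654 in the count table, 49 of the large subunit and 36 of the small subunit. The symbol rule took 4 rows that RefSeq lists as pseudogenes, *Rpl6l*, *Rps3a2*, *Rps3a3* and *Rps4l*. The members lay on 20 chromosomes.

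Ribosomal proteins join the ribosomal RNAs to form the large and small subunits of the ribosome, the machine that translates mRNA. Growing cells make them in large and matched amounts, and their mRNAs are among the most abundant in a proliferating myoblast. These mRNAs typically begin with a C followed by a run of pyrimidines, the terminal oligopyrimidine (TOP) motif, through which the mTOR pathway controls their translation.

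Control MuSCs came from *Piezo1*+/+; *Pax7*CreERT2/+ mice, labelled wild type, and *Piezo1* cKO MuSCs from *Piezo1*flox/flox; *Pax7*CreERT2/+ mice, all on the C57BL/6 background and of an age not given in the sources used here. Both genotypes carried the tamoxifen-dependent Cre, which is driven by *Pax7* and so acts in MuSCs only, and both received tamoxifen in vivo and 1 µM 4-OH TMX in culture. Cells sorted as VCAM1+ CD31- CD45- Sca1- were grown for 3 days on Matrigel in medium with 30% foetal bovine serum and 10 ng/ml basic fibroblast growth factor. There were 3 libraries per group, with 740936, 931168 and 891531 counts in the control and 810096, 726378 and 769295 in the *Piezo1* cKO libraries. Each count is a molecule tagged with a unique molecular identifier, so levels are given as CPM (counts scaled to a library of 1000000) and are not divided by gene length. Nothing in the labels says that the libraries of a group came from separate mice, so the p-values measure the spread between these libraries only.

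*Piezo1* itself had 11, 5 and 6 counts in the control libraries and 7, 12 and 9 in those labelled *Piezo1* cKO. The deleted gene was therefore not lower in the libraries labelled cKO, and every direction below rests on the labels. Counts over the whole gene do not tell transcripts with the deleted exons from intact ones. The myogenic genes *Myod1* (1091, 1225 and 1220 counts in the control libraries, 1175, 823 and 1021 in the *Piezo1* cKO libraries) and *Des* were high in every library. Sums over a list are given as CPM of all counts, without TMM scaling. Endothelial markers summed to at most 18.2 CPM and haematopoietic markers to at most 26.8 CPM in any library. Their most abundant genes were *Tek* and *Cd68*. The fibro-adipogenic list ran at 85.0, 191 and 116 CPM in the control and 56.8, 44.1 and 62.4 CPM in the *Piezo1* cKO libraries, led by *Cd34*, which MuSCs also express, and the smooth muscle and pericyte list at 43.2, 30.1 and 42.6 against 54.3, 60.6 and 81.9 CPM, led by *Cspg4*. *Cd34* had 53, 172 and 91 counts in the control and 39, 23 and 35 in the *Piezo1* cKO libraries, whereas *Ly6a* had 2, 2 and 3 against 5, 8 and 9.

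Of the members, 61 had an entry in the RefSeq promoter table (GRCm38.p6), and 15 of these (24.6%) had a start that was a C followed by at least 4 C or T, against 3.01% of the 27025 genes in that table. A run of at least 8 C or T within 10 bases of the start was present in 50.8% of the members and 16.1% of all genes in the table. Members with a start of this kind are shown for both subunits, the stalk and a ubiquitin-like fusion. Each window runs from 20 bases before the annotated start to 15 bases from it on, 5′ to 3′, and capitals mark the pyrimidine run at the start.
Rps6, chr4:86857353-86857387, minus strand: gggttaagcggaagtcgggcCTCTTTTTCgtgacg
Fau, chr19:6057927-6057961, plus strand: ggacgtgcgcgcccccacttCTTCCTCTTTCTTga
Rplp2, chr7:141447631-141447665, plus strand: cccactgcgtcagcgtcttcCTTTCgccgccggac
Rpl35, chr2:39005117-39005151, minus strand: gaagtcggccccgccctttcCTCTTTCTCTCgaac
Rps18, chr17:33955651-33955685, minus strand: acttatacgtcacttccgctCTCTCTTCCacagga
Rpl15, chr14:18270972-18271006, minus strand: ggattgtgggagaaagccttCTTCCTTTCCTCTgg
The run was 13 bases long in *Fau* and *Rpl15* and 5 in *Rplp2*. A start without these letters says only that they are not at the base that the promoter table gives. The 14 tested members with a TOP start had a median log2 fold change of -0.17 and the 46 without one also -0.17.

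Ribosomal protein genes took up a smaller part of the *Piezo1* cKO libraries on average, with 1 of the 3 close to control. Their share of all counts was 6.57%, 6.45% and 6.61% in the control libraries (mean 6.55% ± 0.0844, SD, n = 3) and 5.84%, 5.63% and 6.47% in the *Piezo1* cKO libraries (5.98% ± 0.436). The third *Piezo1* cKO library lay above the second control, so the groups overlapped. The difference of the means, -0.564 percentage points, was -0.389 without *Piezo1* cKO 2 and -0.808 without *Piezo1* cKO 3. The 200 most abundant genes outside the members, ranked over all libraries, held 20.7%, 19.2% and 19.8% of control counts. They held 19.0%, 15.9% and 18.6% of *Piezo1* cKO counts, without overlap, so a lower share was not particular to ribosomal protein genes. In bulk RNA, fewer cells of a type and less RNA per cell cannot be told apart, and a share falls when other genes rise.

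Large subunit genes held 3.74%, 3.73% and 3.73% of control counts and 3.33%, 3.17% and 3.62% of *Piezo1* cKO counts. These groups did not overlap, and the control values differed by far less (SD 0.00592) than the *Piezo1* cKO values (SD 0.230). Small subunit genes held 2.83%, 2.72% and 2.88% in the control and 2.51%, 2.46% and 2.85% in the *Piezo1* cKO libraries, where the third library again fell within the control range. The ratio of large to small subunit counts was 1.32, 1.37 and 1.29 in the control and 1.32, 1.29 and 1.27 in the *Piezo1* cKO libraries. The mean difference of the ratio, -0.0348, was smaller than the control SD of 0.0417, and the groups overlapped. The difference was -0.0121 without control 2. For the small subunit the difference of the means, -0.203 percentage points, was -0.130 without *Piezo1* cKO 2 and -0.323 without *Piezo1* cKO 3.

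**Figure D1:**
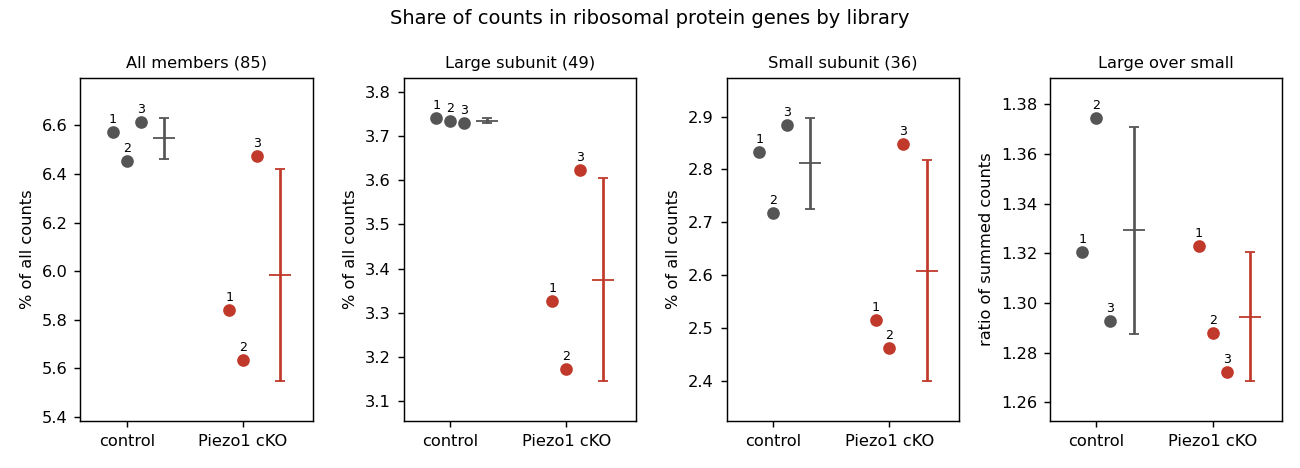
Share of counts in the 85 ribosomal protein genes, in the large and the small subunit genes (% of all counts), and the ratio of large to small subunit counts, by library. Points are libraries with their replicate number, bars are mean ± SD of 3 libraries, and the axes do not start at 0; the third Piezo1 cKO library sits near the control libraries in all 3 shares.

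In the genome-wide fit with edgeR's quasi-likelihood test, 83 of the 85 members passed the filter on low counts, and none of them changed at an adjusted p under 0.05. Over the 8551 genes tested, 27 were called lower (0.316%) and 40 higher (0.468%) in *Piezo1* cKO. At an unadjusted p under 0.05 there were 13 members (15.7%), all lower, against 11.9% of all genes in either direction. DESeq2 called 27 of 19247 genes, 12 higher and 15 lower, among them 1 member, *Rpl5*, which was lower. It had 26 of 85 members at an unadjusted p under 0.05, against 2.99% of all 19247 genes. That fit had no filter on low counts, so this share includes many scarcer genes. It cannot be set beside the shares over the 8551 filtered genes. limma-voom called no member and had 18 of 83 at an unadjusted p under 0.05, against 11.8% of all genes. limma on cyclic loess values called none and had 4 of 83, against 10.6% of all genes.

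Most members had a small negative log2 fold change. It was below 0 in 76 of 83 members (91.6%), against 49.8% of all genes tested, with a median of -0.17 (quartiles -0.25 and -0.10) beside 0.00 over all genes. Without the filter on low counts 78 of 85 members were below 0 (median -0.18), and without *Piezo1* cKO 2, the library with the lowest share, 71 of 83 (median -0.14). The median was -0.20 for the 49 large subunit genes and -0.16 for the 34 small subunit genes tested. In 29 members (34.9%) every *Piezo1* cKO library was below every control, against 8.31% of all genes tested. Only *Rpl10a*, a large subunit protein, was higher in every *Piezo1* cKO library, against 8.2% of all genes. The values for *Rpl10a* were 278, 262 and 276 CPM in the control and 288, 284 and 331 CPM in the *Piezo1* cKO libraries.

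The negative median of the members lay close to that of other genes of like abundance. Members were abundant, with 47 of the 83 at a mean log2 CPM of 9 to 10 and 18 above 10. Across all other genes the log2 fold change fell with abundance, from a median of 0.08 below a log2 CPM of 5 to -0.12 at 8 to 9. The 186 other genes at 9 to 10 had a median of -0.18, against -0.17 for the 47 members there. The 58 other genes above 10 had a median of -0.27, against -0.27 for the 18 members there. The count without overlap also followed abundance. Every *Piezo1* cKO library was below every control in 34.9% of the other genes at 9 to 10 and 43.1% above 10, beside 16 of 47 and 11 of 18 members. Of these other genes, 84.9% were below 0 in the first band and 96.6% in the second, beside 45 of 47 and 18 of 18 members. Cyclic loess removes such a trend by its construction, and after it the members' median was -0.0027, with 44 below and 39 above 0.

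**Figure D2:**
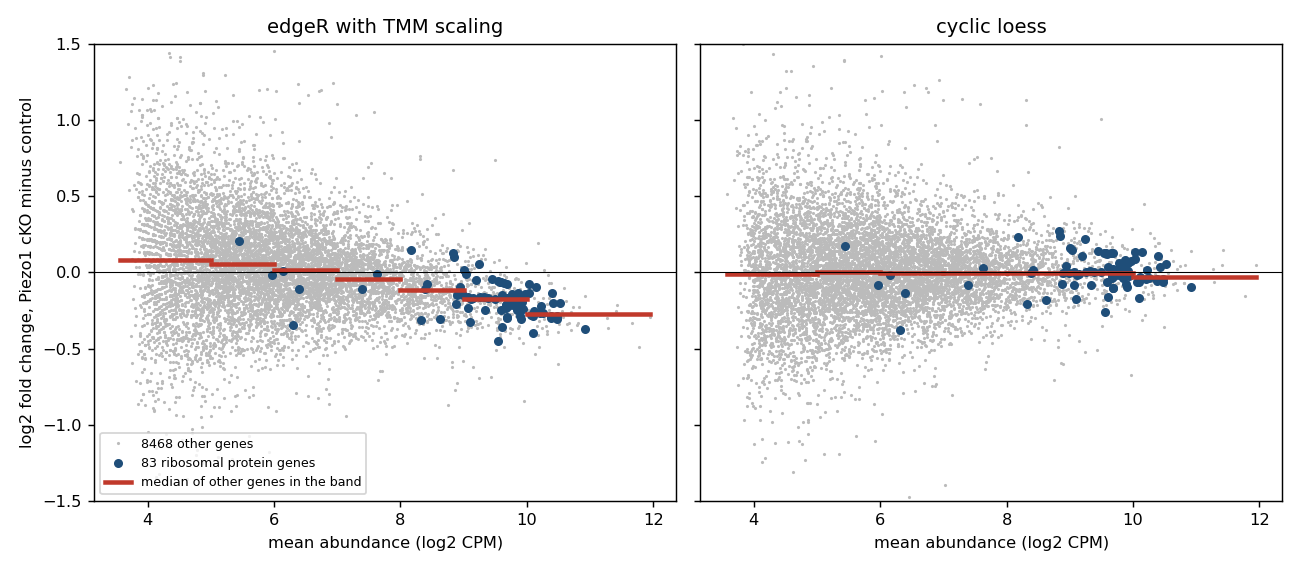
Log2 fold change (Piezo1 cKO minus control) against mean abundance (log2 CPM) for all 8551 genes tested, after TMM scaling (left) and after cyclic loess (right). Blue points are the 83 ribosomal protein genes and red lines the medians of the other genes in each band of abundance; on the left the members lie around the falling red lines, and on the right around 0. The vertical axis stops at 1.5 on either side, which leaves no member out.

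The shift was carried unevenly by the libraries. Relative to its own mean over the 6 libraries, the median member stood at 0.11, 0.07 and 0.11 (log2 CPM) in the control libraries. It stood at -0.12, -0.21 and 0.06 in the *Piezo1* cKO libraries, so the third lay on the control side. Of the 83 members, 58 were above their own mean in the third *Piezo1* cKO library, 13 in the first and 8 in the second. The second was the lowest of the 6 libraries for 49 members (59.0%). This library also had the largest TMM factor, 1.08 against 0.963 to 1.01 in the others. The 200 most abundant genes outside the members held 15.9% of its counts. They held 19.0% and 18.6% in the other *Piezo1* cKO libraries and 19.2% to 20.7% in the control libraries. The members varied little within groups, with a median SD of 0.15 log2 CPM beside 0.16 for other genes at a log2 CPM of 8 or more and 0.23 for all genes tested.

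**Figure D3:**
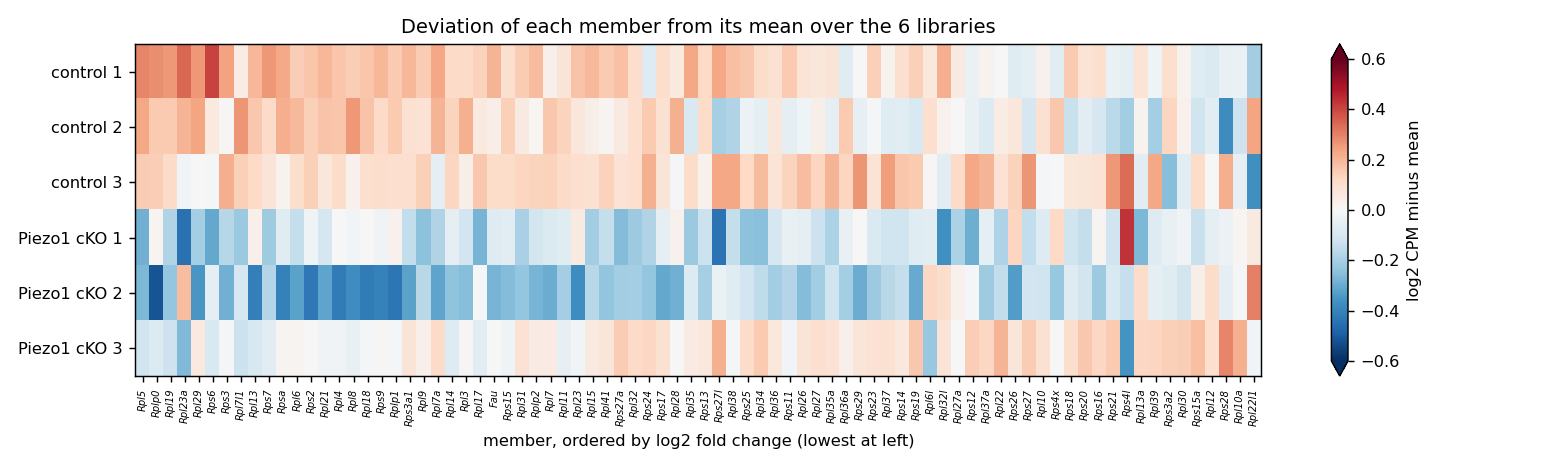
Log2 CPM of the members tested minus its mean over the 6 libraries, without 3 that are not reported here, with libraries as rows and members as columns ordered by log2 fold change. Red is above and blue below the mean, and colours saturate at 0.6; the second Piezo1 cKO library is blue across most members, and the third is mixed.

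Of the genes of muscle differentiation, 4 were called higher in *Piezo1* cKO in the edgeR fit with the filter on low counts. Over all 8551 genes tested in that fit, 0.468% were called higher and 49.8% were below 0. The 24 genes of the list that were in the table, with *Tnnt2* the most abundant, summed to 947, 519 and 826 CPM in the control and 1283, 3074 and 1698 CPM in the *Piezo1* cKO libraries. The sum was highest in *Piezo1* cKO 2, which had the lowest ribosomal protein share, but *Piezo1* cKO 3, with a share close to control, had a higher sum than *Piezo1* cKO 1. All 17 that were tested had a positive log2 fold change (median 1.77). Those called were *Actn3*, a sarcomeric actinin (1.20 ± 0.18, SE, adjusted p = 1.02e-05), *Tnni2*, a fast troponin (2.16 ± 0.45, adjusted p = 0.00459), *Jph2* (0.99 ± 0.24, adjusted p = 0.0237) and *Smyd1* (1.77 ± 0.43, adjusted p = 0.0430). Without *Piezo1* cKO 2 *Actn3* alone of the 4 was still called. *Jph2* was also lost without control 2, and *Smyd1* without control 2, control 3 or *Piezo1* cKO 3. Both were lost with a replicate block and after cyclic loess, and *Smyd1* also with total counts only, with adjusted p up to 0.277 for *Tnni2*, 0.369 for *Jph2* and 0.430 for *Smyd1* over the alternatives that gave one. DESeq2 gave no adjusted p for *Tnni2*, *Jph2* and *Smyd1*, at log2 fold changes of 2.15, 0.97 and 1.74. Other settings also called further genes of the list higher. *Acta1* was called with DESeq2 (adjusted p = 0.00485) and with a replicate block (adjusted p = 0.00418). *Tnnc1* was called with the block (adjusted p = 0.00463) and after cyclic loess (adjusted p = 0.0452). Without the filter, *Tnnc1*, *Tnnt3*, *Mymk*, *Mymx*, *Myh3* and *Casq2* were called. Leaving the whole list out of the denominator moved the difference in ribosomal protein share from -0.564 to -0.557 percentage points. The list held at most 3074 CPM in any library, so leaving it out could move a share only slightly. No other link between the list and the ribosomal protein values was tested. Markers of stem cells and myoblasts summed to 2742, 2561 and 2682 CPM in the control and 2849, 2413 and 2601 CPM in the *Piezo1* cKO libraries, with *Myod1* the most abundant. None of the 8 was called in the edgeR fit with the filter on low counts, and *Sdc4* was called without that filter (adjusted p = 0.0327). Of these markers 4 were above 0 and 4 below, with a median of -0.06. The surface proteins *Sdc4* (-0.53 ± 0.15, adjusted p = 0.0609) and *Vcam1* (-0.45 ± 0.16, adjusted p = 0.185) were lower and *Cdh15* (0.53 ± 0.16, adjusted p = 0.118) higher in every *Piezo1* cKO library than in every control. *Pax7* was at -0.64 ± 0.36 (adjusted p = 0.481), and its groups overlapped. The groups also overlapped for *Myf5* (0.28 ± 0.23), *Des* (0.10 ± 0.14), *Itga7* (0.04 ± 0.14) and *Myod1* (-0.15 ± 0.15).

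*Rpl5* and *Rpl11* bind the 5S ribosomal RNA and, when free of the ribosome, inhibit the p53 ligase MDM2. *Rpl5* was at 905, 867 and 821 CPM in the control and 605, 611 and 680 CPM in the *Piezo1* cKO libraries. It was lower in all 3 *Piezo1* cKO libraries, with a log2 fold change of -0.45 ± 0.14 (SE) and an adjusted p of 0.107 in edgeR. That was the lowest value of the members tested in this fit. *Rpl23a* was lower after cyclic loess (-0.38) and without *Piezo1* cKO 2 (-0.55, against -0.43 for *Rpl5*). In DESeq2 *Rpl5* was at -0.46, with an adjusted p of 0.0168, and after cyclic loess it was -0.26 with an adjusted p of 0.283. Over 13 alternatives its adjusted p ran from 0.0168 to 0.283, and its log2 fold change was negative in each. *Rpl5* lies at chr5:107900508-107909005 (GRCm38.p6), and 26.7% of its exonic bases are shared with *Fam69a* or *Snord21*. *Rpl11* was at 857, 891 and 880 CPM in the control and 773, 705 and 784 CPM in the *Piezo1* cKO libraries. Its groups did not overlap either, at a log2 fold change of -0.22 ± 0.14 and an adjusted p of 0.568.

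The stalk of the large subunit, built on *Rplp0* with *Rplp1*, *Rplp2* and *Rpl12*, recruits the translation factors that hydrolyse GTP. *Rplp0*, the member with the most counts (chr5:115559467-115563729), was at 2308, 2118 and 2104 CPM in the control and 1922, 1327 and 1795 CPM in the *Piezo1* cKO libraries. The groups did not overlap, with the second *Piezo1* cKO library far below the rest (-0.37 ± 0.16, adjusted p = 0.298). Without that library the log2 fold change was -0.23. *Rplp1* was at 1299, 1299 and 1248 CPM against 1183, 860 and 1158 CPM, again without overlap. *Rplp2* overlapped, at 1350, 1196 and 1299 CPM against 1098, 976 and 1227 CPM. *Rpl12*, which sits at the stalk base, went the other way, at 429, 434 and 457 CPM in the control and 437, 493 and 489 CPM in the *Piezo1* cKO libraries (0.10 ± 0.13, adjusted p = 0.832). The groups overlapped for *Rpl12*.

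Around the exit of the peptide tunnel, where the nascent chain leaves the large subunit, all 7 genes were below 0, with a median of -0.22 and none called. *Rpl19* was at 925, 862 and 837 CPM in the control and 681, 658 and 709 CPM in the *Piezo1* cKO libraries. It was lower in all 3 of the latter (-0.36 ± 0.14, adjusted p = 0.239). *Rpl17* did not overlap between groups either (-0.23 ± 0.13, adjusted p = 0.497), whereas *Rpl26*, *Rpl31* and *Rpl35* did. *Rpl23a*, which binds the signal recognition particle, was among the scarcest members, at 96.4, 87.0 and 74.4 CPM against 54.5, 85.8 and 62.3 CPM, and its groups overlapped (-0.34 ± 0.19, adjusted p = 0.475). Its log2 fold change was -0.21 without *Piezo1* cKO 1 and -0.55 without *Piezo1* cKO 2. Of the exonic bases of *Rpl23a*, 62.3% are shared with *Tlcd1* or *Snord42b*, and of those of *Rpl35*, 66.2% with *Arpc5l* or *Wdr38*. *Rpl39*, a small protein lining the tunnel, was nearly level at -0.01 ± 0.14.

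In the head of the small subunit 12 of the 13 genes tested were below 0, with a median of -0.15 and none called. *Rps3*, at the mRNA entry channel, was at 1119, 950 and 1103 CPM in the control and 840, 775 and 943 CPM in the *Piezo1* cKO libraries. Every *Piezo1* cKO value was below the control values, by a narrow margin in the third (-0.31 ± 0.14, adjusted p = 0.370). *Rps15*, near the decoding site, did not overlap between groups either, with a log2 fold change of -0.23 ± 0.14. *Rps19*, the gene most often mutated in Diamond-Blackfan anaemia, overlapped at 1483, 1259 and 1497 CPM against 1276, 1088 and 1499 CPM. *Rps28*, at 434, 345 and 522 CPM against 437, 432 and 550 CPM, was above 0 (0.13 ± 0.14, adjusted p = 0.794), but at -0.01 without control 2 and 0.00 without *Piezo1* cKO 3.

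*Rps6*, the substrate of the S6 kinases downstream of mTOR (chr4:86854099-86857367), was at 417, 327 and 312 CPM in the control and 253, 301 and 294 CPM in the *Piezo1* cKO libraries. Its groups did not overlap, although the first control stood well above the other two (-0.31 ± 0.14, adjusted p = 0.330). Without that control the log2 fold change was -0.17. *Rpsa*, also known as the laminin receptor, was at 1539, 1528 and 1334 CPM against 1252, 992 and 1329 CPM, without overlap (-0.30 ± 0.15, adjusted p = 0.415). The margin was narrow in the third *Piezo1* cKO library, and the log2 fold change was -0.19 without the second. *Fau* and *Rps27a*, which are made fused to ubiquitin-like and ubiquitin sequences, had log2 fold changes of -0.23 ± 0.14 and -0.20 ± 0.14, and of the pair only *Fau* was without overlap. Among the other members with the most counts, *Rpl13* and *Rps2* did not overlap between groups (-0.31 and -0.29) and *Rpl41* did (-0.20). Without *Piezo1* cKO 2 the log2 fold changes were -0.19 for *Rpl13*, -0.16 for *Rps2* and -0.14 for *Rpl41*.

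**Figure D4:**
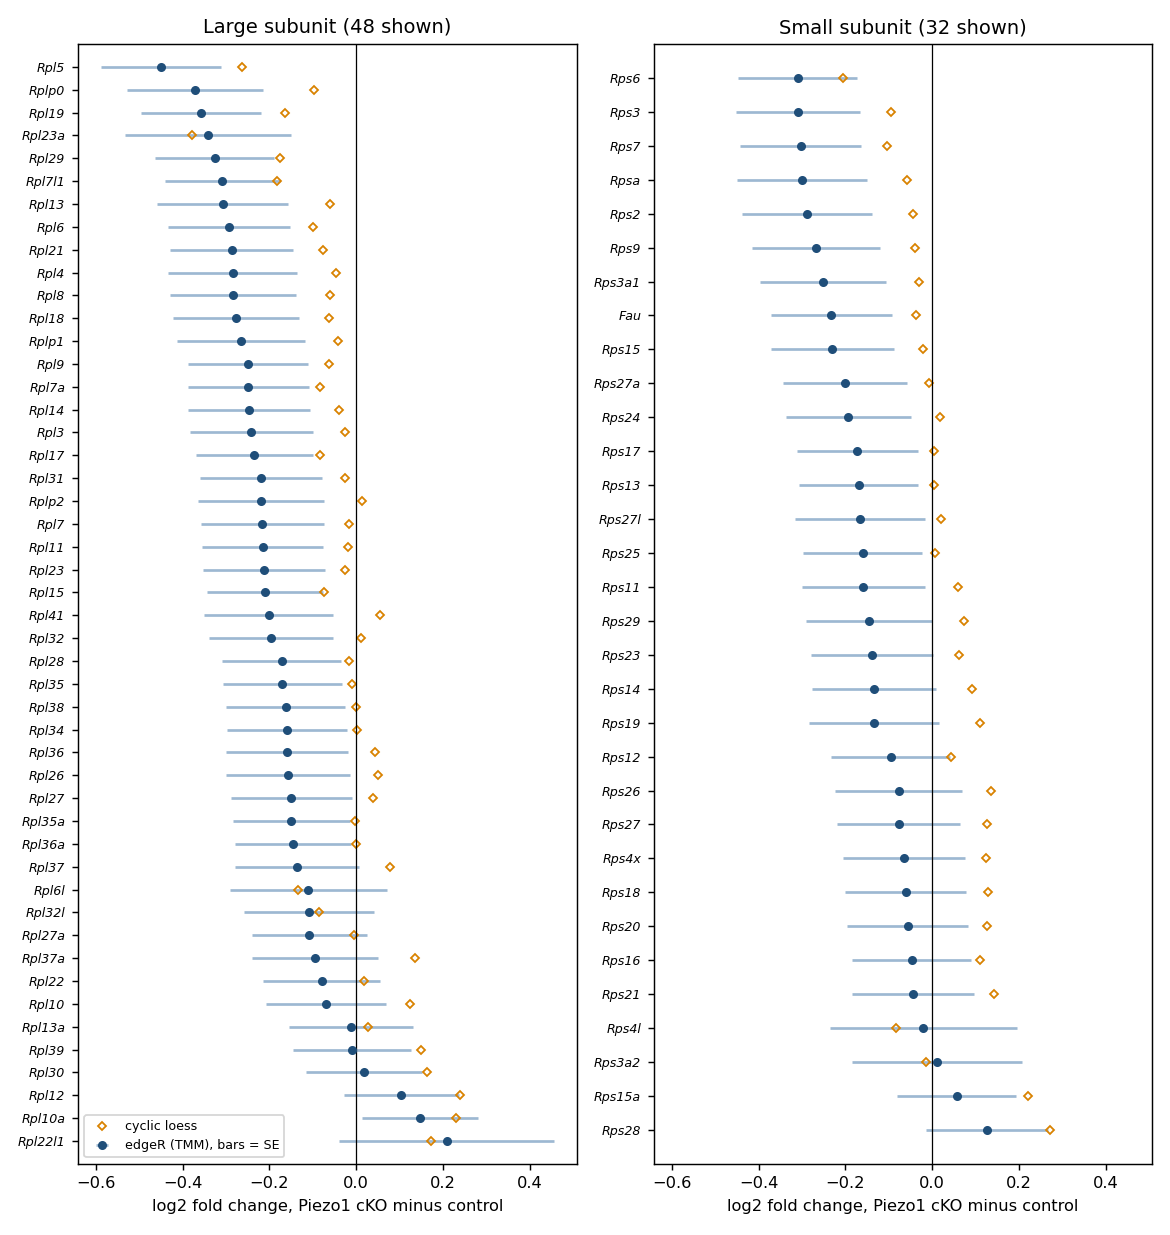
Log2 fold change (Piezo1 cKO minus control) of the large and small subunit genes tested, without 3 that are not reported here, ordered by value. Blue points are edgeR values with TMM scaling and their SE, and open orange diamonds the values after cyclic loess; most blue points are below 0 and the diamonds fall on both sides of it.

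The paralogues were taken pair by pair. *Rpl22l1*, with the highest log2 fold change of the family under TMM scaling, was at 34.5, 48.0 and 30.7 CPM in the control and 41.8, 50.2 and 39.8 CPM in the *Piezo1* cKO libraries. The groups overlapped throughout this range (0.21 ± 0.25, adjusted p = 0.818), and the value was 0.07 without control 3 and 0.44 without control 2. Its partner *Rpl22* was at 338, 348 and 358 CPM against 297, 304 and 388 CPM (-0.08 ± 0.13), with -0.01 without *Piezo1* cKO 1 and -0.22 without *Piezo1* cKO 3. *Rpl7l1*, a relative of *Rpl7*, was at 401, 467 and 429 CPM against 332, 362 and 355 CPM, without overlap (-0.31 ± 0.13, adjusted p = 0.310), and *Rpl7* was at -0.22 ± 0.14. *Rps27* and the p53-responsive *Rps27l* were at -0.08 ± 0.14 and -0.17 ± 0.15. Leaving out *Piezo1* cKO 3 gave -0.18 for *Rps27* and -0.33 for *Rps27l*. *Rps27* stood at 0.05 when control 3 was left out, and *Rps27l* at -0.01 when *Piezo1* cKO 1 was. *Rps4x* and the pseudogene *Rps4l* were at -0.07 ± 0.14 and -0.02 ± 0.22. With a library left out, *Rps4x* ran from -0.15 (*Piezo1* cKO 1) to 0.02 (*Piezo1* cKO 2). *Rps4l* ran from -0.30 (*Piezo1* cKO 1) to 0.17 (control 3). The muscle-specific *Rpl3l* had 1 count in all libraries together, whereas *Rpl3* was at 1050, 1125 and 993 CPM against 894, 812 and 974 CPM (-0.24 ± 0.14). *Rpl39l* had no count in any library, and *Rpl36al* had 3 beside 2262 for *Rpl36a* (-0.15 ± 0.13). *Rps15a* was the last of the 5 highest members, at 0.06 ± 0.14 and -0.03 without *Piezo1* cKO 3, and *Rpl10* stood at -0.07 ± 0.14.

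A few symbols had far fewer counts than their partners in the ribosome. Just inside the minimum of 10 summed counts were *Rps10*, with 19, *Rps3a3*, with 52, and *Rpl22l1*, with 194, of which the first 2 were not tested. Just outside were *Rpl24* with 9, *Rpl36al* with 3 and *Rpl3l* with 1. Of the exonic bases of *Rpl24*, 47.0% are shared with *Gm28037*. *Rps10* had 3, 5 and 7 counts in the control and 2, 0 and 2 in the *Piezo1* cKO libraries, where 0 allows up to 4.13 CPM. The 4 rows named as its pseudogene copies had 773 counts together, and 28.7% of its exonic bases lie under other annotated genes, among them the readthrough gene *RPS10-NUDT3*. Such copies are common in the family. The 193 rows named as pseudogene copies held 0.690%, 0.668% and 0.685% of control counts and 0.613%, 0.749% and 0.722% of *Piezo1* cKO counts, which overlapped. Of the 62 copies tested none was called and 37 were below 0, with a median of -0.07.

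Near-identical sequence limits what a count of a single member means. Of the 50-base stretches in the last 300 bases of each member's transcript, all were unique among annotated transcripts (GENCODE M21) for 23 members, and under 20% were unique for 20 members. None was unique for 5 members, *Rpl9*, *Rpl10*, *Rpl36a*, *Rps27* and *Rpl6l*. Among the members described above, *Rpl5*, *Rpl11*, *Rplp0*, *Rpsa* and *Rps3* had only unique stretches, whereas *Rps6* had 16.7% and *Rpl19* 33.1%. Further members named here with few unique stretches were *Rpl35* (3.98%), *Rps12* (5.58%), *Rpl10a* (12.7%), *Rps27a* (13.1%), *Rpl13* (16.7%), *Rpl23a* (19.1%) and *Fau* (19.9%). The value of any member with few unique stretches is uncertain where reads could be split between copies.

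Other genes of protein synthesis were read from lists drawn up by function. Over all 8551 genes tested, 49.8% were below 0, with a median of 0.00, and 0.316% were called lower. Among 54 genes of ribosome assembly and rRNA synthesis, 49 had a log2 fold change below 0 (median -0.29), and 2 were called lower. *Ncl*, the nucleolar protein nucleolin, had 1232, 1687 and 1312 counts in the control and 1059, 683 and 896 in the *Piezo1* cKO libraries (-0.60 ± 0.15, adjusted p = 0.0280), and *Nop56*, of the box C/D particles that methylate rRNA, was at -0.59 ± 0.14 (adjusted p = 0.0134). Both calls were lost when control 1, control 2, *Piezo1* cKO 2 or *Piezo1* cKO 3 was left out and after cyclic loess, with adjusted p up to 0.147 for *Ncl* and 0.202 for *Nop56* over all alternatives. After cyclic loess the median of this list was -0.21, against -0.07 for the TOP mRNAs outside the family and -0.05 for translation factors. Of 16 tested TOP mRNAs that do not encode ribosomal proteins all were below 0 (median -0.23). Among them *Rack1*, *Eef1a1*, *Eef2*, *Tpt1* and *Npm1* lay at a log2 CPM of 9.40 to 10.2. Of all genes outside the ribosomal protein family, 84.9% were below 0 at 9 to 10 and 96.6% above 10. *Hnrnpa1*, an RNA-binding protein on the TOP list, was called lower (-0.56 ± 0.13, adjusted p = 0.0158). That call was lost when control 1, *Piezo1* cKO 2 or *Piezo1* cKO 3 was left out and after cyclic loess, with adjusted p up to 0.202, and with a replicate block it was 0.0567. *Npm1*, on both the assembly and the TOP list, was not called in edgeR (-0.47 ± 0.14, adjusted p = 0.104). DESeq2 called it lower (-0.48, adjusted p = 0.00641), and after cyclic loess its adjusted p was 0.251. *Rack1*, a protein of the small subunit outside the symbol rule, was at -0.27 ± 0.15 (adjusted p = 0.451).

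Translation factors had a median of -0.16 over 66 genes tested, with 52 below 0, and none was called. The 75 tested mitochondrial ribosomal protein genes, whose products serve the separate ribosome of mitochondria, had a median of -0.07, with 46 below 0 and none called. Of the 16 tested mTOR and Myc regulators none was called (median -0.04). *Myc*, the transcription factor that drives ribosome production, had 192, 334 and 253 counts in the control and 194, 159 and 176 in the *Piezo1* cKO libraries (-0.46 ± 0.14, adjusted p = 0.0917). The 10 tested chaperones and importers of ribosomal proteins had a median of -0.03, and none was called.

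**Figure D5:**
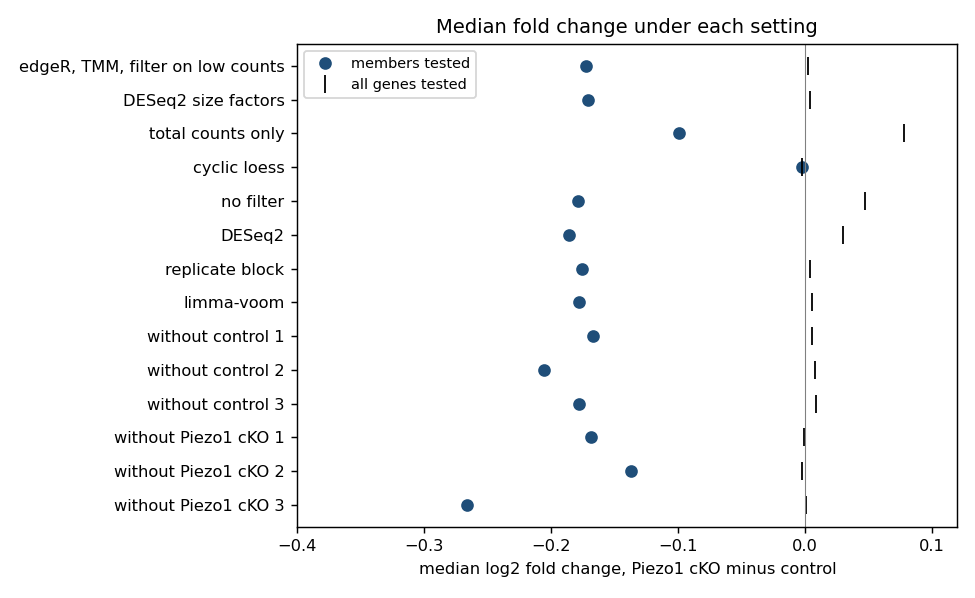
Median log2 fold change (Piezo1 cKO minus control) of the ribosomal protein genes tested (circles) and of all genes tested (ticks) under each setting. Circles lie between -0.27 and -0.10 under every setting but cyclic loess, where circle and tick both lie at 0.00.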

How the data were processed

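RNA-seq libraries of 3 control and 3 *Piezo1* cKO MuSC cultures were made from 500 pg of total RNA with 12 cycles of PCR. The authors deposited 1 table of raw counts per gene, made with STAR 2.7.9a, UMI-tools 1.1.1 and featureCounts 2.0.1 on GRCm38, per the submitters' processing notes. The settings for strand and for reads with several positions were not given in the sources used here. Reads with the same molecular identifier were collapsed. Depth was 726378 to 931168 counts per library, where 3 counts equal 3.22 to 4.13 CPM. These floors cover counting error only, whereas the SE and SD values also hold the spread between libraries.

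All genes were fitted with edgeR 4.0.16 (R 4.3.3; filter with a minimum count of 10, TMM scaling, robust quasi-likelihood test) as group only over all 6 libraries, with Benjamini-Hochberg adjustment over the genes tested and calls at 0.05. CPM values of single genes are TMM-scaled, sums over lists are per total counts, and SE is the log2 fold change divided by the root of F. Shares are sums of deposited counts over all counts. DESeq2 1.42.0 and limma 3.58.1 served as alternatives, with a prior count of 2 and 3 rounds of cyclic loess. Each test was tested on simulated data. With 3 libraries against 3, an exact permutation test of a single value cannot go below p = 0.1 (two-sided), so none is given, and sums or medians over members carry no p-value.

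Members, gene lists and tests were chosen with earlier results of these data known. Named genes were members called, the 5 highest and 5 lowest by log2 fold change, the 5 with the most counts, genes with fixed roles, the 3 on either side of the count minimum, and genes called in the other lists. *Rack1*, *Myc*, *Npm1*, *Eef1a1*, *Eef2*, *Tpt1* and the members with no unique sequence were named outside this rule, after their values were seen. Lists came from general knowledge. Libraries of a group were checked for duplication and none was found. A few genes that these rules name are not reported here.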

Additional observations from a re-analysis of the deposited data

How the results depend on the processing

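No member was called higher under any setting tried. The number called lower was 1 with DESeq2 (*Rpl5*) and 0 under the others. The number of genes called over the whole table, 67, became 129 with no filter on low counts, 32 after cyclic loess and 27 with DESeq2. It ran from 6 (without the second *Piezo1* cKO library) to 174 (without the first) when a library was left out. The median log2 fold change of the members was -0.0027 after cyclic loess, -0.10 with total counts only, which moved the median of all genes to 0.08, and -0.27 to -0.14 when a library was left out. The sign changed in 34 of 83 members after cyclic loess, in 9 with total counts only, in 1 with DESeq2 and in 2 to 7 when a library was left out. The difference in share (-0.564 percentage points for all members, -0.361 for large and -0.203 for small subunit genes) moved by less than the SD pooled over both groups under each alternative tried. Leaving out *Piezo1* cKO 3 gave the lowest value for all members, -0.808, and leaving out *Piezo1* cKO 2 the highest, -0.389, and both moves were larger than the control SD of 0.0844. The same libraries gave the ends for large (-0.485 to -0.259) and small subunit genes (-0.323 to -0.130), and the ratio ran from -0.0531 (without control 3) to -0.0121 (without control 2). limma-voom and the addition of pseudogene copies were chosen after seeing the data. Shares without mitochondrially encoded genes were not run, since no symbol of the table starts with mt-.

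Libraries with the same replicate number did not deviate together (correlations of -0.14, -0.20 and 0.01). The labels do not say whether the numbers mark pairs, and these correlations cannot settle it. With a replicate block 46 genes and no member were called, and the median of the members was -0.18. For the shares and the ratio, the mean of differences within replicate numbers equals the difference of the group means by construction, so the block says nothing about them. Depth limits single members: SE ran from 0.13 to 0.25 log2 units, and the fold change was smaller than its SE in 27 of 83.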
